A study of Canis lupus familiaris with 6 samples.

Results

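ABC transporters and P-type ATPases are the main families of membrane proteins that move a substrate across a membrane by splitting ATP. Their transcripts were followed in MDCK type II cells, an epithelial line from dog kidney, with and without E-cadherin. The members were taken by gene symbol: ABCA, ABCB, ABCC, ABCD or ABCG followed by a number, or a symbol beginning with ATP1A, ATP1B, ATP2A, ATP2B, ATP2C, ATP7, ATP8, ATP9, ATP11 or ATP13A. ATP10A and ATP11B were left out, and a mean of at least 10 normalized counts over the 6 libraries was required. The rule gave 42 genes, 20 ABC transporters and 22 P-type ATPases, of 12851 genes in the deposited table and 12349 that were tested. Its terms were names and the overall level, but the members were chosen with earlier results of these data known. Of 43 genes that fit the names, 1 lay under the minimum, ABCA1, with a mean of 3.27, and the member just inside it was ATP2A1, with a mean of 10.3. ABCG genes were not analysed here.

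The groups were 3 poly-A RNA libraries from untreated wild-type cells (WT) and 3 from cells of the same line with E-cadherin knocked out (KO). Nothing in the labels says how many clones the KO cells represent, or whether replicate libraries stem from different cultures, so p-values describe only how these libraries spread, perhaps for technical reasons. Cell density was not known, since one label speaks of confluent cells and another of 70 to 80% confluency. CDH1, the gene of E-cadherin, stood at 38542, 39643 and 39370 normalized counts in WT against 1115, 1120.4 and 1237 in KO, or 2.95% of the WT mean.

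An ABC transporter binds ATP at a pair of nucleotide-binding domains and swings its membrane domains from one side to the other; most human and canine members export lipids, drugs, conjugated anions, haem precursors or peptides. A P-type ATPase passes the phosphate of ATP to an aspartate of its own and changes shape as it does so, and its subfamilies move sodium and potassium, calcium, copper, phospholipids or polyamines. In kidney epithelia the sodium pump sits in the basolateral membrane and drives most other transport. MDCK cells make their own P-glycoprotein and are a standard host for drug transport assays.

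Values are normalized counts, the authors' reads per gene scaled between libraries, so they are compared between libraries and not between genes of different transcript length. A log2 fold change is KO over WT, fitted on log2(value + 1), and a gene is called where its adjusted p from limma is under 0.05. The library totals were 18281549 to 19386796 normalized counts, and about 16884423 to 22438421 reads by the size of the smallest step between values. Pairs of libraries from the same group had Pearson correlations across genes of 0.987 to 0.991, and pairs from different groups 0.934 to 0.940. Among markers of renal epithelium, 8 of 10 had values here and all 8 reached 10 normalized counts. Their summed level was 78104 to 81471 in WT and 39089 to 40749 in KO, a sum that includes CDH1. Besides CDH1, CLDN4 and OCLN of this list were called lower in KO, at 61.1% and 88.4% of the WT mean, and PAX8 and CDH16 higher, at 136% and 399%. EPCAM, KRT18 and PAX2, at 95.3%, 99.9% and 103% of the WT mean, were not called. Of fibroblast markers only PDGFRA had values, at 17.7 to 20.6 in WT and 28.7 to 40.4 in KO; of leukocyte markers 1 of 5 had values and of endothelial markers 0 of 5. The part of these markers in the results was not tested. In bulk RNA, fewer cells that make a transcript and less of it per cell cannot be told apart.

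Most of the transporter genes changed, in both directions. Of the 42 members, 11 rose in KO, 15 fell and 16 were not called. The called share was 61.9%, against 48.1% of all tested genes, where 23.6% were higher and 24.5% lower. The counts by role and by list of partner genes below stand beside the same 48.1%, and none of these groups was tested as a set. Over all partner lists 62.1% of the tested genes were called, among them FXYD6, which passed the minimum mean only through KO. Members and lists were chosen with earlier results of these data known, so the shares of 61.9% and 62.1% cannot show an excess over all genes. The median log2 fold change was -0.04 for the members and -0.01 for all tested genes, and the median absolute log2 fold change was 0.31 and 0.21. For 29 members the 2 groups of values were fully apart, the 26 called ones plus ABCB6, ABCB8 and ATP11A; this held for 56.4% of all tested genes.

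The largest changes were those of ABC genes. Of the 20 ABC transporters, 9 rose and 5 fell, with a median absolute log2 fold change of 0.46; of the 22 P-type ATPases, 2 rose and 10 fell, with a median absolute log2 fold change of 0.16. A called change of at least 1.5-fold was found upwards for 5 members (10.4% of all tested genes) and downwards for 5 (6.6%). A called change of at least 2-fold was found for 6 members, against 8.66% of all tested genes. All 6 were ABC genes: ABCA7, ABCB1 and ABCC1 rose, and ABCA8, ABCC4 and ABCC5 fell. ABCA8 reached the minimum mean of 10 through its WT libraries alone, so it could be tested only as a gene that is high in WT. It supports no count here that includes it, above or below: falls, the called share, 1.5-fold and 2-fold changes, or groups fully apart. Without it 14 members fell and 5 changed by at least 2-fold. The fitted changes of the P-type ATPases ran from -0.60 to 0.49 on the log2 scale. The difference between the superfamilies was not tested.

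**Figure D1:**
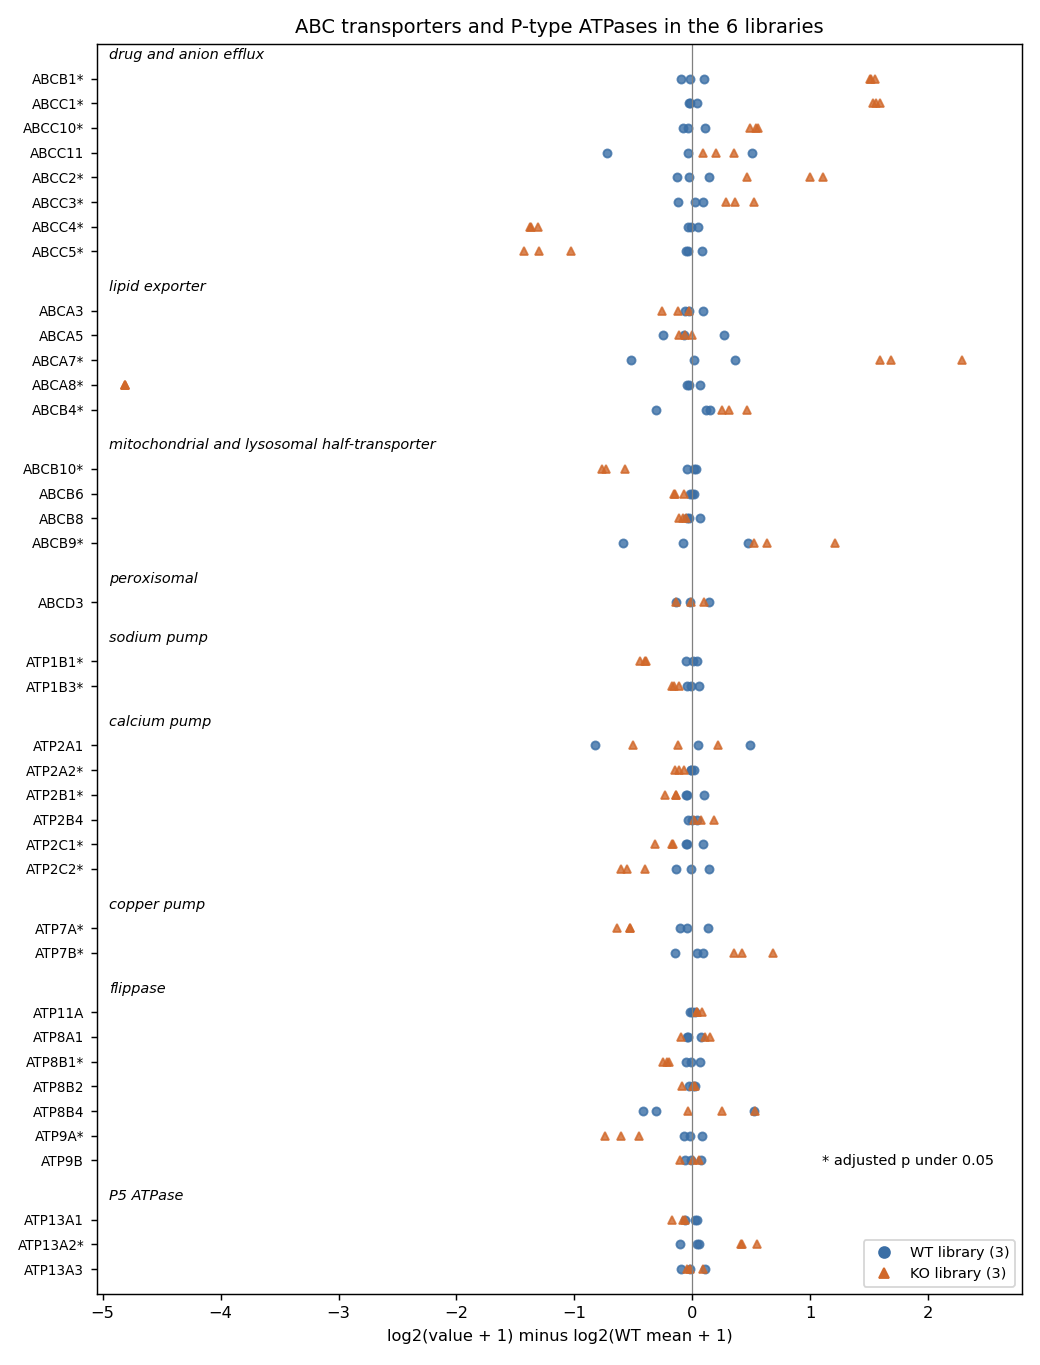
Each row is 1 of 38 members and each point a library, drawn as log2(value + 1) minus log2(WT mean + 1), with WT libraries as blue circles and KO libraries as orange triangles; members are grouped by role, and a star marks an adjusted p under 0.05. The KO points of ABCB1 and ABCC1 lie far to the right of their WT points, those of ABCC4, ABCC5 and ABCA8 far to the left, and among the 7 flippases drawn only ATP8B1 and ATP9A are starred, with ATP8B4 spread widely in both groups.

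The drug and organic anion exporters were divided. Of 8 members, 5 rose, 2 fell and 1, ABCC11, was not called. ABCB1 (ENSCAFG00845007972) encodes P-glycoprotein, the apical exporter of many lipophilic drugs. It was at 743, 808 and 705 normalized counts in WT against 2206, 2135 and 2146 in KO. Every KO library was well above every WT library, the mean was 2.88-fold higher and the log2 fold change 1.52 (SE 0.0595, adjusted p = 1.98e-10). ABCC1 (ENSCAFG00845007668) encodes MRP1, a basolateral exporter of glutathione and glucuronide conjugates. It rose from 174, 174 and 182 to 522, 512 and 535, with log2 fold change 1.56 (SE 0.0793, adjusted p = 2.76e-09). The groups were far apart and the libraries within each close together.

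ABCC2, ABCC3 and ABCC10 also rose, by less. ABCC2 encodes MRP2, the apical counterpart of MRP1 in kidney and liver. It was at 25.1, 22.1 and 20.6 in WT against 46.2, 31.5 and 49.9 in KO, with KO replicate 2 nearest to the WT libraries (log2 fold change 0.86, adjusted p = 0.00726). ABCC3, a basolateral exporter of glucuronides and bile acids, rose 1.32-fold from a mean of 832 ± 62.1 to 1094 ± 94.2 (SD, n = 3 in each group, as below). ABCC10, which exports amphipathic anions, rose 1.44-fold from 501 ± 33.4 to 723 ± 17.9. ABCC11 was at 14.6, 8.73 and 21.8 in WT against 17.5, 19.6 and 16.1 in KO, within the range of the WT libraries (adjusted p = 0.477).

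ABCC4 and ABCC5, exporters known for carrying cyclic nucleotides, fell. ABCC4 (ENSCAFG00845008054) encodes MRP4, which also exports urate and prostaglandins and lies apically in renal tubules. It was at 2296, 2440.3 and 2335 in WT against 952, 906 and 912 in KO, a 2.55-fold fall of the mean (log2 fold change -1.35, SE 0.0518, adjusted p = 1.73e-10). ABCC5 (ENSCAFG00845024339), MRP5, was at 993, 911 and 902 in WT against 457, 379 and 347 in KO (log2 fold change -1.25, SE 0.0929, adjusted p = 1.41e-07). The groups did not overlap for either gene. The genes around ABCC5 were lower as well: of its 20 nearest neighbours in the dog gene order (tested genes whose mean reached 100), 17 were called lower and 1 higher, with a median log2 fold change of -0.35. ABCC5 lay 0.90 below that median.

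**Figure D2:**
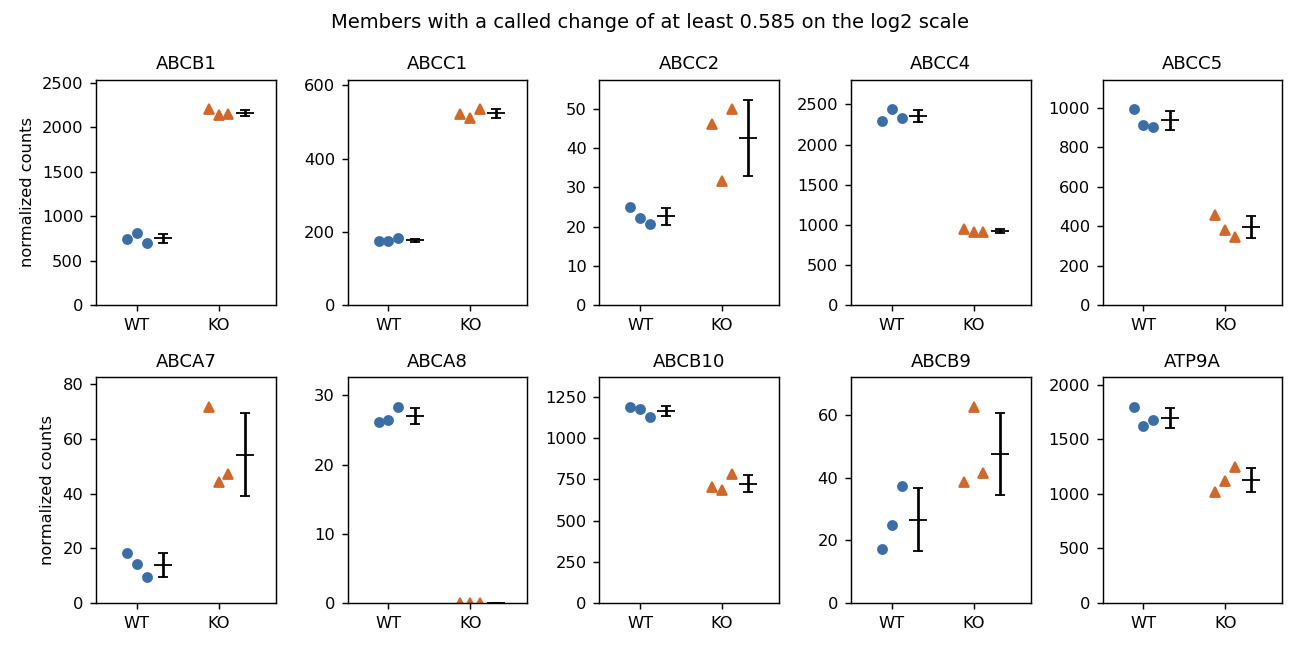
Normalized counts of the 10 members with a called change of at least 1.5-fold in either direction, on axes from 0; circles are the 3 WT and triangles the 3 KO libraries, and the black mark and bar give the mean and SD. ABCB1 goes from a WT mean of 752 to a KO mean of 2163 and ABCC4 from 2357 to 924, while ABCA8 is at 0 in every KO library.

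Lipid exporters held a strong rise, that of ABCA7, and a gene listed at 0 in KO, ABCA8. Of 5 members, 2 rose, 1 fell and 2 were not called. The 1 that fell was ABCA8, which does not support the count because it passed the minimum mean through WT alone. ABCA8 (ENSCAFG00845029488), a lipid transporter of the ABCA family, was at 26.2, 26.5 and 28.3 in WT and was listed at 0 in all 3 KO libraries (adjusted p = 7.87e-07, for a gene that passed the minimum mean through WT alone). ABCA7 (ENSCAFG00845013692), which exports phospholipid, went from 18.2, 14.1 and 9.45 to 71.7, 44.1 and 47.0 (log2 fold change 1.90, SE 0.279, adjusted p = 7.98e-05). KO replicate 1 was the highest of its group, and the lowest KO library was still above the highest WT library.

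ABCB4, the phosphatidylcholine exporter of bile canaliculi and the neighbour of ABCB1 in the gene order, was 1.27-fold higher (log2 fold change 0.36, adjusted p = 0.0345). It was not called once WT replicate 1, KO replicate 2 or KO replicate 3 was left out (adjusted p = 0.165, 0.132 and 0.0595, in this order), and its log2 fold change was 0.21 without WT replicate 1. Nor was it called by limma without its trend and robust options (adjusted p = 0.0833). Of the 20 nearest neighbours of ABCB1, ABCB4 among them, 2 were called higher and 4 lower, with a median log2 fold change of -0.15. ABCA3, which fills lamellar bodies with surfactant lipid in lung, was at 494, 505 and 548 in WT against 432, 475 and 507 in KO, with overlap (adjusted p = 0.194). ABCA5, a transporter of lysosomes and endosomes, was at 185 ± 34.9 and 177 ± 6.84 (adjusted p = 0.805). Among tested genes with a mean of at least 100, it is the nearest to ABCA8 on one side in the gene order.

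Half-transporters of mitochondria and lysosomes went different ways: of 4 described here, 1 rose, 1 fell and 2 were not called. ABCB10 (ENSCAFG00845001468), an inner mitochondrial membrane protein needed for haem synthesis, was at 1191, 1177 and 1130.0 in WT against 702, 687 and 783 in KO. The groups were clearly apart, and the log2 fold change was -0.69 (SE 0.0646, adjusted p = 1.10e-06). ABCB8, another inner membrane transporter, was at 2112, 2135 and 2277 in WT against 2010.4, 2059 and 2100.0 in KO (adjusted p = 0.205). Its groups lay side by side without overlap and without a call. ABCB6, a porphyrin transporter, showed a log2 difference of -0.12 (adjusted p = 0.0745).

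ABCB9, a peptide transporter of lysosomes, was at 17.3, 25.02 and 37.3 in WT against 38.6, 62.6 and 41.6 in KO (log2 fold change 0.85, adjusted p = 0.0229). The highest WT library nearly met the lowest KO library. The call did not hold once WT replicate 1 or KO replicate 2 was left out (adjusted p = 0.0995 and 0.112, in this order), or in limma without its trend and robust options (adjusted p = 0.0706). ABCD3, a peroxisomal transporter that carries branched-chain fatty acids and bile acid intermediates, was at 2722, 3055 and 2509 in WT against 2951, 2741 and 2511 in KO, nearly the same range (adjusted p = 0.906).

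**Figure D3:**
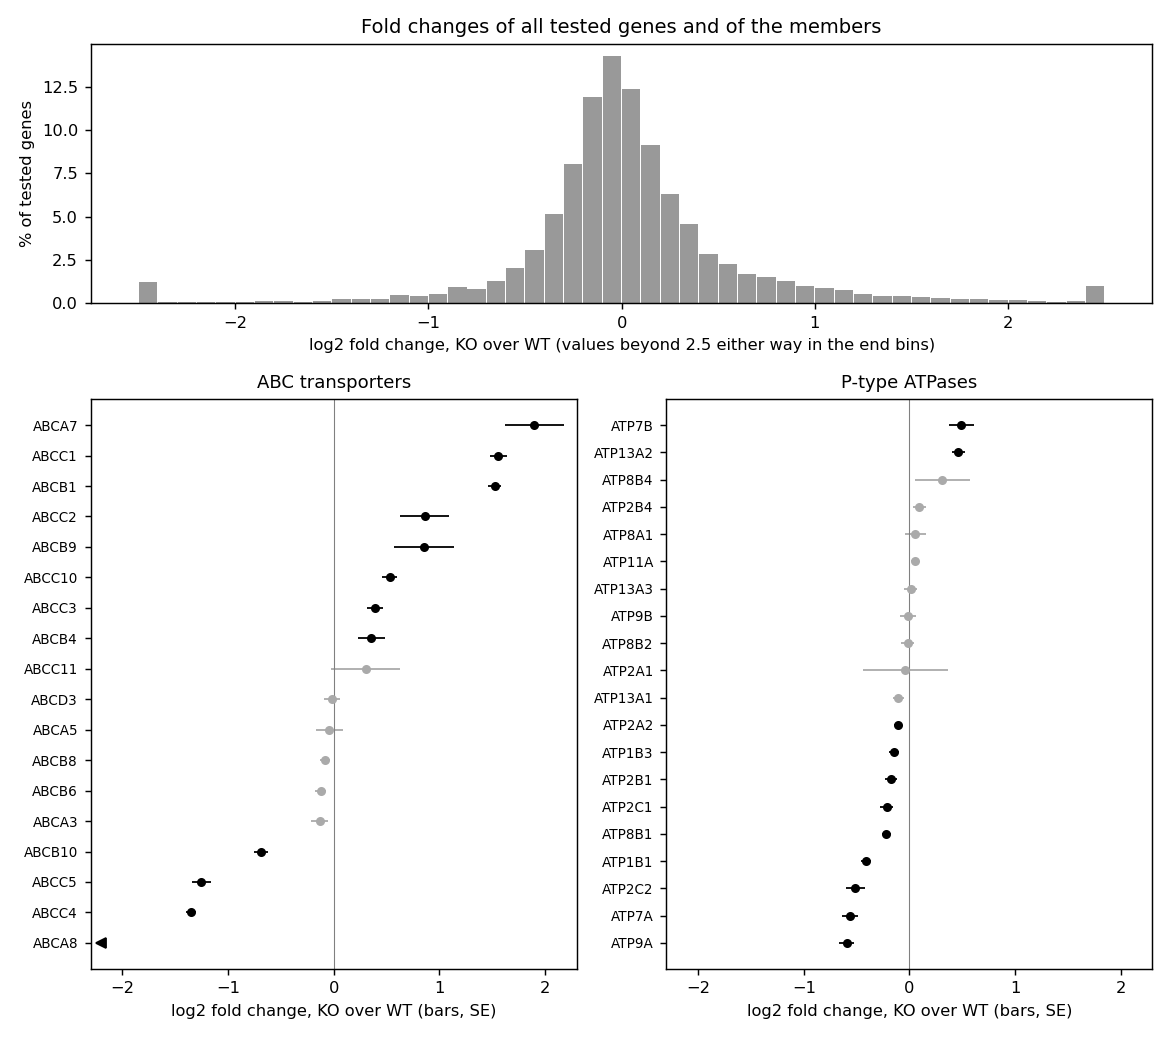
The upper panel is the distribution of log2 fold changes, KO over WT, over all 12349 tested genes; the lower panels give the log2 fold change of 38 members with its SE, black where called and grey where not. The ABC genes spread from ABCC4 at -1.35 to ABCA7 at 1.90, with ABCA8 (listed at 0 in KO) drawn as an arrow at the edge, while the P-type ATPases lie between -0.60 and 0.49.

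Both beta subunits of the sodium pump fell. ATP1B1 (ENSCAFG00845002526) encodes the beta subunit that brings the pump to the surface and whose outer part takes part in contact between MDCK cells. It was at 4037, 4308 and 4211 in WT against 3161, 3196 and 3083 in KO (log2 fold change -0.41, SE 0.0445, adjusted p = 4.46e-06). The fall, 1.33-fold, was larger than the spread within either group. ATP1B3, another beta subunit, fell 1.11-fold (adjusted p = 0.0209), which did not hold once KO replicate 2 or KO replicate 3 was left out (adjusted p = 0.0797 and 0.0659, in this order), or in limma without its trend and robust options (adjusted p = 0.0612). Of the FXYD proteins, small regulators of this pump, FXYD2 and FXYD6 were tested. FXYD2, the gamma subunit of kidney, went from 73.6, 75.5 and 70.5 to 160.0, 165 and 174 (log2 fold change 1.17, adjusted p = 2.15e-06). FXYD6 passed the minimum mean only through KO, so it could be tested only as a gene that is high in KO. Its mean was 8.13 ± 2.89 in WT and 16.5 ± 4.89 in KO (adjusted p = 0.0409, with this limit). FXYD6 was not called once WT replicate 1, WT replicate 3, KO replicate 2 or KO replicate 3 was left out. The adjusted p was then 0.0785, 0.129, 0.0763 and 0.166, in this order.

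Calcium pumps were lower or not called. Of 6 members, 0 rose, 4 fell and 2 were not called, where ATP2A1 was at 5.58 to 15.4 in WT and 7.24 to 12.6 in KO and ATP2B4 at 817 ± 23.6 and 872 ± 53.7. At an unadjusted p under 0.05 the count of higher members in this group was also 0, as it was by the authors' deposited adjusted p. ATP2C2, a pump of the secretory pathway that binds the channel ORAI1 in mammary cells, fell 1.43-fold from 446 ± 43.1 to 312 ± 23.1 (log2 fold change -0.51, adjusted p = 0.000397). ATP2C1, which loads the Golgi with calcium and manganese, was at 2427, 2676 and 2441 in WT against 2246, 2228 and 2017 in KO (log2 fold change -0.22, adjusted p = 0.00702).

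ATP2A2, the SERCA pump that refills the endoplasmic reticulum, was at 6100.1, 5988 and 5982 in WT against 5731, 5568 and 5448 in KO, a 1.08-fold difference with no overlap (log2 fold change -0.11, adjusted p = 0.0382). The call did not hold once WT replicate 1, KO replicate 2 or KO replicate 3 was left out (adjusted p = 0.132, 0.120 and 0.131, in this order), with TMM rescaling (adjusted p = 0.050006) or in limma without its trend and robust options (adjusted p = 0.0967). ATP2B1, which exports calcium across the plasma membrane, was at 1833, 2021 and 1818 in WT against 1713, 1607 and 1714 in KO (log2 fold change -0.17, adjusted p = 0.0230). It was not called once WT replicate 2 or KO replicate 2 was left out (adjusted p = 0.0636 and 0.116, in this order), in limma without its trend and robust options (adjusted p = 0.0724) or in the authors' deposited table (adjusted p = 0.0633).

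Genes of calcium stores and calcium entry that work beside these pumps were mixed. Of 9 tested partners, 4 rose, 3 fell and 2 were not called, with a median log2 fold change of -0.07. The called share was 77.8%, against 48.1% of all tested genes. The store sensor STIM2 rose 1.84-fold from 394 ± 43.4 to 724 ± 7.74 (adjusted p = 1.04e-06). The median of its 20 nearest neighbours was 0.23, with 9 of them called higher and 4 lower. The entry channel ORAI1 rose from 93.4 ± 6.36 to 148 ± 14.2 (adjusted p = 0.000711). Its relative ORAI2 fell from 644 ± 7.90 to 478 ± 12.9 (adjusted p = 0.000101).

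The copper pumps moved in opposite directions. ATP7A (ENSCAFG00845020199), the pump that most tissues use to load enzymes with copper in the Golgi and to export it, was at 647, 735 and 623 in WT against 462, 428 and 464 in KO (log2 fold change -0.56, SE 0.0778, adjusted p = 4.51e-05). ATP7B (ENSCAFG00845020988), known for copper excretion by the liver, was at 122, 139 and 144 in WT against 218, 181 and 173 in KO (log2 fold change 0.49, SE 0.121, adjusted p = 0.00432). Neither pair of groups overlapped. Of 10 tested copper partners 4 rose, 1 fell and 5 were not called. The metal reductase STEAP3 rose from 986 ± 72.1 to 1889 ± 44.2, the metallothionein MT2A from 315 ± 5.96 to 626 ± 48.1 and SLC31A2, a relative of the copper importer SLC31A1, from 35.7 ± 3.13 to 71.0 ± 7.91 (adjusted p = 2.78e-08, 1.92e-07 and 0.000414). Metallothionein genes are close copies of each other, so reads could be divided between them.

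Most phospholipid flippases were not called, as were 6408 of all 12349 tested genes. Of 7 described here from the P4 group, which move phospholipids to the cytosolic leaflet of a membrane, 0 rose, 2 fell and 5 were not called. At an unadjusted p under 0.05 the count of higher flippases was also 0, and the authors' deposited table called 0 higher. ATP9A (ENSCAFG00845027235), a protein of endosomes, was at 1797, 1618 and 1680.4 in WT against 1019, 1115 and 1244 in KO (log2 fold change -0.60, SE 0.0716, adjusted p = 1.31e-05). It fell where its surroundings did not: of its 20 nearest neighbours 10 were called higher and 3 lower, with a median of 0.17. ATP8B1 (ENSCAFG00845001746), a flippase of apical membranes whose loss causes cholestasis in humans, was at 11061, 11614 and 10713 in WT against 9714, 9586 and 9358 in KO (log2 fold change -0.22, SE 0.0411, adjusted p = 0.000598).

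ATP11A, which flips phosphatidylserine at the cell surface, was at 6475, 6594 and 6412 in WT against 6678, 6672 and 6858 in KO, without overlap and without a call (adjusted p = 0.286). ATP8A1 was at 222 ± 10.7 in WT and 232 ± 21.3 in KO, ATP8B2 at 792 ± 13.5 and 784 ± 31.5, and ATP9B at 426 ± 19.8 and 422 ± 23.8. ATP8B4 was at 26.1, 51.1 and 28.3 in WT against 34.3, 51.2 and 42.0 in KO, with WT replicate 2 at the KO level (adjusted p = 0.350).

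Partners of the flippases were mixed. TMEM30A, the CDC50 subunit that most flippases need, was at 1950.4 ± 188 and 2100.4 ± 82.7 (adjusted p = 0.185). TMEM30B, its epithelial relative, fell from 1029.6, 1041 and 1068 to 834, 891 and 965 (log2 fold change -0.23, adjusted p = 0.0104), which did not hold once KO replicate 1 was left out (adjusted p = 0.0568). Of the scramblase family PLSCR1 fell 2.58-fold from 807 ± 17.0 to 313 ± 19.3 and PLSCR3 rose 1.97-fold from 459.8 ± 51.4 to 908 ± 61.3 (adjusted p = 3.73e-09 and 4.77e-07). In all, 1 of the 7 tested members of this partner list rose and 2 fell, or 42.9% called against 48.1% of all tested genes. ATP10D, a flippase outside the name rule, rose from 965, 982 and 1015 to 1559, 1633 and 1601 (log2 fold change 0.69, adjusted p = 1.33e-07).

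Among the P5 ATPases, 1 of 3 rose. ATP13A2, a polyamine exporter of lysosomes, rose from 1046, 937 and 1033 to 1346, 1341 and 1468 (log2 fold change 0.46, SE 0.0625, adjusted p = 3.70e-05). Of its 20 nearest neighbours 7 were called higher and 0 lower, with a median of 0.13, and ATP13A2 lay 0.33 above it. ATP13A3, a polyamine transporter of endosomes, was at 3065, 3335 and 2896 in WT against 3297, 3011 and 3049 in KO, fully overlapping (adjusted p = 0.898). ATP13A1, which removes misplaced proteins from the endoplasmic reticulum membrane, showed a log2 difference of -0.10 (adjusted p = 0.114) and was called only with WT replicate 2 left out (-0.13, adjusted p = 0.0391).

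**Figure D4:**
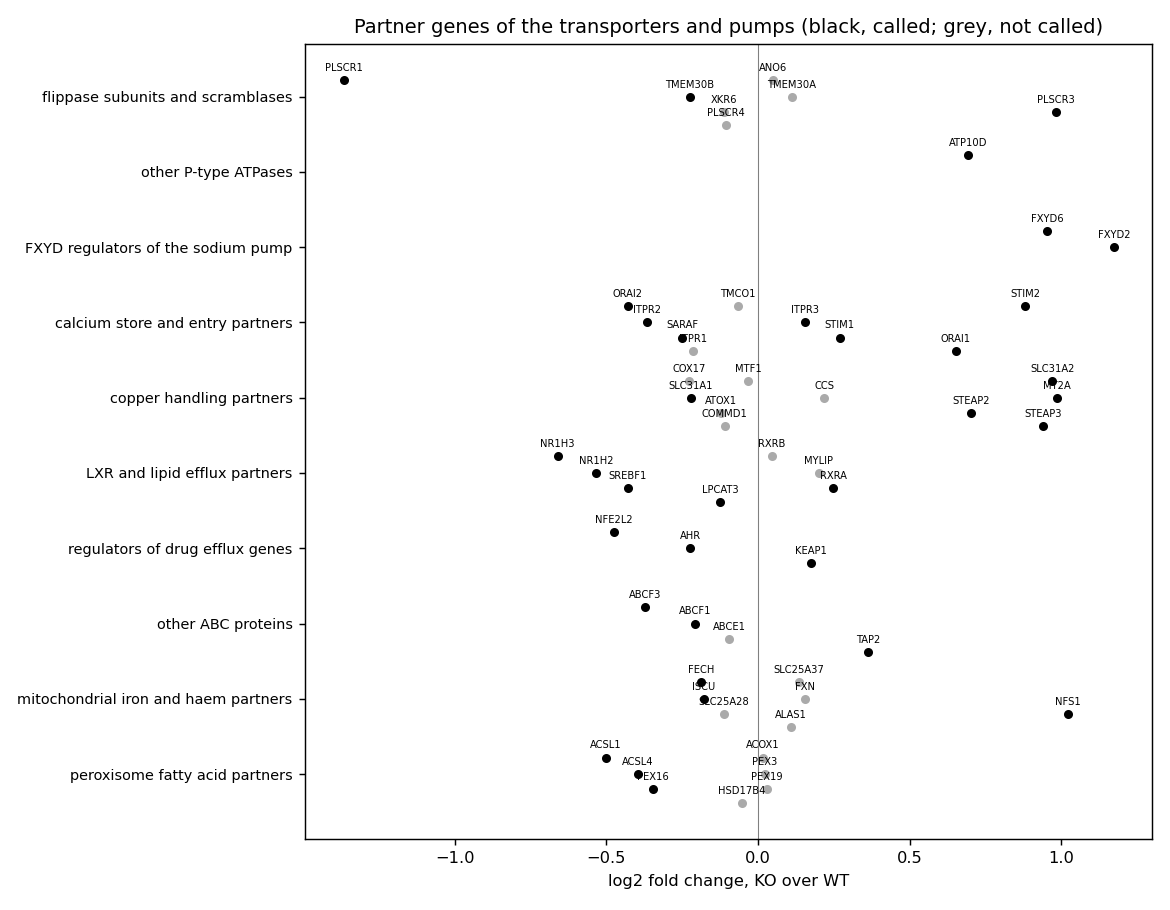
Log2 fold changes, KO over WT, of tested genes in 10 lists of partners, black where called and grey where not. Both FXYD genes and ATP10D lie to the right, where FXYD6 passed the minimum mean only through KO. PLSCR1 is farthest left at -1.37. In the list of peroxisome fatty acid partners every called gene lies to the left, and the other lists hold genes on both sides or near 0.

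Regulators of drug efflux genes went both ways. Of 4 tested, 2 rose and 2 fell. HNF4A, a transcription factor of liver and kidney, lay under the minimum mean and was not tested. It was at 3.34, 2.47 and 1.68 in WT against 16.3, 11.4 and 18.34 in KO, without overlap. NFE2L2, which encodes the oxidative stress factor NRF2, a known activator of several ABCC genes, fell 1.39-fold from 3271 ± 184 to 2351 ± 73.9 (adjusted p = 4.82e-06). Its inhibitor KEAP1 was 1.13-fold higher (adjusted p = 0.0212), which did not hold once WT replicate 3, KO replicate 2 or KO replicate 3 was left out (adjusted p = 0.0734, 0.110 and 0.0551, in this order), or in limma without its trend and robust options (adjusted p = 0.0798). In the list of sterol-sensing and lipid efflux partners 1 of 7 rose and 4 fell: NR1H2, the widely expressed liver X receptor, fell 1.45-fold and SREBF1, a factor it activates, fell 1.35-fold, whereas RXRA, its partner, rose 1.19-fold.

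Among partners of the mitochondrial transporters 1 of 7 rose and 2 fell, or 42.9% called against 48.1% of all tested genes. The cysteine desulfurase NFS1, which supplies sulfur for iron-sulfur clusters, rose from 788 ± 31.8 to 1599.9 ± 60.8 (log2 fold change 1.02, adjusted p = 6.89e-09). All 20 of its nearest neighbours were called higher, with a median of 0.93. FECH, which inserts iron into haem, fell from 1572 ± 65.3 to 1379 ± 39.7, and ISCU, the cluster scaffold, was 1.13-fold lower (adjusted p = 0.0376). The ISCU call did not hold once WT replicate 2, KO replicate 2 or KO replicate 3 was left out (adjusted p = 0.117, 0.101 and 0.131, in this order), or in limma without its trend and robust options (adjusted p = 0.0951). Of 7 peroxisome and fatty acid partners 0 rose and 3 fell, the acyl-CoA synthetases ACSL4 and ACSL1 by 1.32-fold and 1.41-fold and PEX16, which helps build peroxisome membranes, by 1.27-fold. The called share of this list was likewise 42.9%. At an unadjusted p under 0.05 the count of higher genes in that list was also 0, as it was by the authors' deposited adjusted p. Of 4 other ABC proteins 1 rose and 2 fell: the peptide transporter subunit TAP2 rose 1.29-fold, and ABCF3 and ABCF1, soluble proteins that bind ribosomes or nucleic acid factors, fell 1.30-fold and 1.16-fold. ABCF3 lies among lower genes, with 17 of its 20 neighbours called lower and a median of -0.36.

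Few members lay among genes whose median log2 fold change was at least 0.2 from 0. All 42 could be placed by gene order in UU_Cfam_GSD_1.0, a dog assembly, 37 of them with all 20 neighbours. The neighbours' median log2 fold change ran from -0.35 to 0.17 and was at least 0.2 from 0 for 1 member, ABCC5. ABCB1 lay 1.67 above its neighbours' median, ABCC1 1.55 above, and ABCA7 1.82 above, and the difference for ABCC4 was -1.25. Some small falls were close to those of the neighbours. The difference was -0.0086 for ATP1B3, -0.036 for ATP2B1 and -0.060 for ATP8B1, with neighbour medians of -0.14, -0.13 and -0.16. It was -0.10 for ATP2A2 and -0.13 for ATP2C1, with neighbour medians of -0.010 and -0.087.

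**Figure D5:**
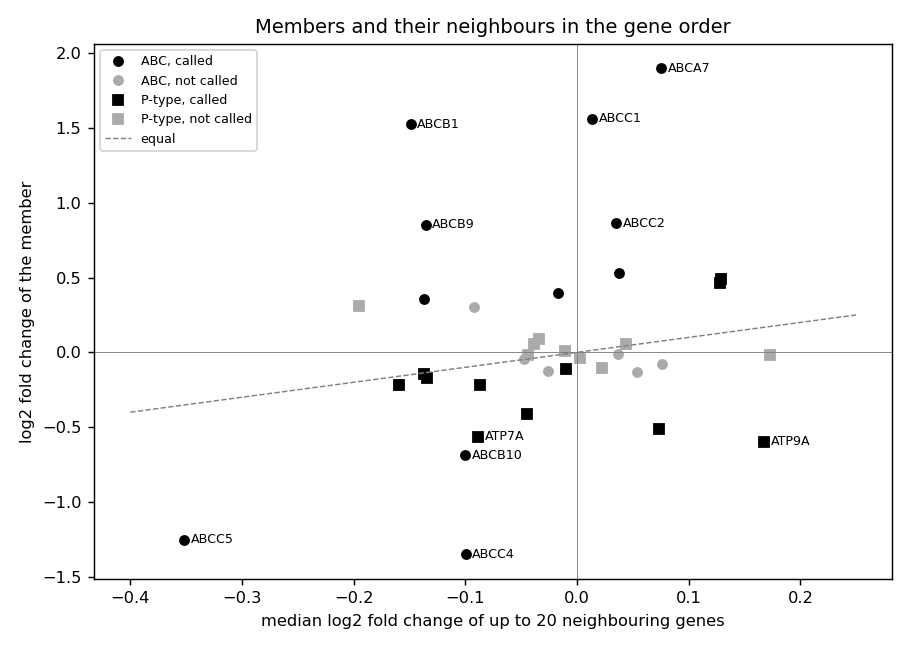
Each point is 1 of 37 members, placed by the median log2 fold change of up to 20 neighbouring tested genes (horizontal) and by its own log2 fold change (vertical), with ABC transporters as circles and P-type ATPases as squares, black where called; the broken line marks equal values, and ABCA8, listed at 0 in KO, is not drawn. ABCC5 is the leftmost point at -0.35, and ABCB1, ABCC1, ABCA7 and ABCC4 lie far from the line.

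The libraries of a group differed little for most members. The coefficient of variation had a median of 5.56% in WT, from 1.105 to 45.9%, and of 5.09% in KO over the 40 members with a KO mean of at least 10, up to 27.9%. Over all tested genes with that minimum the medians were 6.56% and 5.30%. WT replicate 2 held the highest WT value for 18 of 42 members, or 42.9%, against 37.9% of all genes compared. By the authors' deposited table, in KO 11 members were higher and 14 lower at the same threshold, the same members as here except ATP2B1, and for 40 of 42 the log2 fold changes differed by under 0.1; the others were ABCA8 and ATP2A1.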

How the data were processed

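The authors deposited 1 table with a normalized count (signal) per gene and library. It also holds, per the file headers, their mean of normalized counts, log2 fold change with its standard error, score (the fold change over that error), p-value and adjusted p-value. The tools named, per the submitters' processing notes, are DESeq2 1.14.1, featureCounts, STAR 2.5.2b, FastQC and Picard 2.8.1; the genome build is not given in the sources used here. Libraries were stranded, from 250 ng of RNA, read as 75-base pairs, per the labels' protocols. Low values lay within 0.1 of whole multiples of a library's step for 72.2 to 81.0% of values, so reads were not recovered and no count test was run. Reads shared between similar genes could not be assessed.

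Genes whose 6-library mean reached 10 were fitted on log2(value + 1) with limma 3.58.1 in R 4.3.3 (trend and robust options, two-sided), Benjamini-Hochberg adjusted over 12349 genes. This step was first tested on simulated data. Tables were made in Python 3.11.15 with pandas 2.3.3. Fold changes on this scale understate those of low genes. Members with a called change of at least 1.5-fold in either direction, or with the highest mean of their subfamily, have all 6 values; up to 3 called genes per partner list are named, others for contrast after their values were seen. Members, roles and lists were chosen with earlier results of these data known. Neighbours are the 10 nearest tested genes on each side with a mean of at least 100. Alternatives were median-of-ratios and TMM rescaling, limma without its options, pseudocounts of 0.5 and 5, a minimum mean of 50 or none, a replicate block, a minimum fold of 1.5, the authors' calls and leaving out each library. Some members and other genes are counted in the totals but not reported here by name or drawn.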

Additional observations from a re-analysis of the deposited data

Results flagged for a closer look

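A signal appeared in the deposited mean of normalized counts, a column outside the comparison. For 4 members it lay above every value in the 6 libraries. For ATP8B4 it was 202, against 26.1 to 51.2 in the libraries, for ABCA5 332, against 155 to 223, for ATP8A1 333, against 207 to 247, and for ATP2B4 1030.4, against 795 to 931. Across the table, a gene's mean over the 6 libraries was at most 1.5 times the deposited one, as a mean over 9 libraries would give for a gene at 0 in the others. Further libraries were not analysed here. Between KO and WT none of the 4 genes was called by limma at an adjusted p under 0.05, and at an unadjusted p under 0.05 the count was also 0.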

How the results depend on the processing

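With a minimum fold of 1.5, 5 members were called higher and 5 lower in place of 11 and 15, 2100 genes in place of 5941, and 13 partner genes in place of 36. Under the other alternatives each of these counts stayed within 1.5 times. Leaving out each library gave 9 to 11 members higher, 12 to 15 lower, 5067 to 5916 genes in all and 29 to 36 partner genes. Same-numbered libraries did not deviate together (correlations -0.139, -0.208 and 0.0445 over 9994 genes). Among differently numbered pairs the highest correlation was 0.267, for WT replicate 2 with KO replicate 1. Deviations from a mean of 3 libraries depend on each other, so these values cannot decide whether libraries shared a culture or batch. With the replicate block, 11 members were called higher, 15 lower, 6118 genes in all and 37 partner genes. Of the 26 called members, 21 kept the call under every alternative other than the minimum fold. ABCB4, ABCB9, ATP1B3, ATP2A2 and ATP2B1 lost it under at least 1, and the cause was not tested. ABCA8, which passed the minimum mean through WT alone, is among the 26, the 21 and the members counted as lower. It supports none of these counts. Likewise FXYD6, which passed through KO alone, supports no count of partner genes. In 7 of the named members that were not called, the sign of the log2 fold change depended on which library was left out. Its range was -0.16 to 0.10 for ABCA5, -0.016 to 0.60 for ABCC11, -0.080 to 0.062 for ABCD3, -0.037 to 0.065 for ATP13A3, -0.40 to 0.25 for ATP2A1, -0.038 to 0.017 for ATP8B2 and -0.050 to 0.030 for ATP9B. The 7 members with a mean under 50 were not tested with the minimum mean of 50, and their low counts limit the precision.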
